A study of Mus musculus with 2 samples.

Results

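The genes described here are 10 components of activin and TGF-beta signalling, Inhba, Tgfb1, Tgfbr1, Tgfbr2, Acvr1, Acvr1b, Acvr2a, Smad7, Skil and Tgfbi, out of 32285 genes in the count matrix. They were taken by symbol, and each matched 1 row. Inhba was chosen by its measured UMI level, which was higher after treatment in neutrophils and macrophages, so its values in those classes are a description. The other 9 were selected with results of these data known. The study sorted CD45+ immune cells from digested full-thickness mouse skin and sequenced their RNA with a 3′ droplet assay. Cells came from skin challenged with DPCP (diphenylcyclopropenone, a contact sensitizer) and taken on day 2, and from control skin of day 0. The cells of each condition carried their own lipid-linked oligonucleotide tag and were loaded as 1 pool. Strain, age, sex and the number of mice behind each tag are not given in the sources used here, so each condition is 1 tagged sample.

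Activin A is a dimer of the inhibin beta A chain encoded by Inhba, and TGF-beta 1 is encoded by Tgfb1. Both ligands bind a type II receptor that recruits and phosphorylates a type I receptor, and the type I receptor phosphorylates SMAD2 and SMAD3, which enter the nucleus with SMAD4. Smad7 and Skil are targets of the pathway that feed back on it, and Tgfbi is a secreted matrix protein named for its induction by TGF-beta. In skin, activin is known from wound repair, and TGF-beta from the upkeep of Langerhans cells and of resident T cells.

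The matrix held 7866 DPCP barcodes with 53748585 UMIs (unique molecular identifiers, each counting 1 captured RNA molecule) and 6280 control barcodes with 54397154 UMIs. After filtering, 7588 DPCP cells with a median of 4729 UMIs and 4967 control cells with a median of 8797 UMIs were kept. Levels are given in CPM: a gene's UMIs and all UMIs were each summed over the cells of a class and condition, and their quotient was scaled to counts per 1000000. Ratios are DPCP over control. With 1 tagged sample per condition no test was possible, and every interval is a 95% interval of counting error alone (exact Poisson for levels, exact conditional binomial for ratios, exact binomial for shares). A class ends in "-like" because it was named from its marker genes. Neutrophil-like cells were 64.7% of kept DPCP cells (4906) and 2.19% of kept control cells (109), and the DPCP cells sat in clusters 0, 3, 4, 6 and 11, while 104 of the 109 control cells sat in cluster 3. S100a8 with S100a9, genes of the neutrophil marker list, reached 86118 CPM in DPCP and 66286 CPM in control neutrophil-like cells. In every other compared class those transcripts were also higher in DPCP than in control cells, from 696 against 566 CPM in unnamed cluster 1 to 13797 against 499 CPM in T cell-like cells of the epidermal gamma-delta kind. Of the tag UMIs, 14.3% in DPCP cells and 2.14% in control cells belonged to the other condition's tag. The median share of a cell's own tag was 77.8% and 76.5% in DPCP cells of clusters 3 and 6. It was 83.1%, 84.2% and 89.2% in those of clusters 0, 4 and 11, and 93.7% in control cells of cluster 3. The part of mixed tags in the ratios of cluster 3 was not tested.

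The upstream sequences of the 2 ligand genes are shown because one ligand differed most of the 10 genes between the conditions and the other little. Inhba (ENSMUSG00000041324) lies on mm10 chromosome 13 from 16011851 to 16031621 on the plus strand, and Tgfb1 (ENSMUSG00000002603) on chromosome 7 from 25687002 to 25705077 on the plus strand. Each run is the 250 bases before the annotated start (RefSeq, GRCm38.p6, plus strand), at chr13:16011601-16011850 for Inhba and chr7:25686752-25687001 for Tgfb1. Capitals mark the letters TATAAA.
Inhba: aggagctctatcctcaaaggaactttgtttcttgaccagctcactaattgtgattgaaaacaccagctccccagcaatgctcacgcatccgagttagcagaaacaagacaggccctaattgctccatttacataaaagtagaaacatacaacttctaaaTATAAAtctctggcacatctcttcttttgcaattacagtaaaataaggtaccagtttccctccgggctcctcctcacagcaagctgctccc
Tgfb1: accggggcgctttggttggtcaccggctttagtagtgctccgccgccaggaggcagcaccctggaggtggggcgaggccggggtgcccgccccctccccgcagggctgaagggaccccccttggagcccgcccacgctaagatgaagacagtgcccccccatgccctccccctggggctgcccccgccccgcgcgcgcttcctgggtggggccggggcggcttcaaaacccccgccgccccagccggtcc

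The GC content of the Inhba window was 43.2%, and its single TATAAA began at position -91 counted from the start. The Tgfb1 window had a GC content of 75.2%, above that of 96.1% of all windows, and no match to those letters. They were found on either strand in 12.4% of the 32851 windows of this length. Neither window held the SMAD box GTCTAGAC, present in 0.167% of windows. The CAGA box CAGACA, present in 17.1% of windows, was in neither. The AP-1 letters TGANTCA, present in 6.75% of windows, and the CRE letters TGACGTCA, present in 1.55%, were in neither. With 1 match in all, no motifs overlapped, and a match describes letters, not a site in use.

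Inhba was the gene of the 10 with the widest gap between the conditions. Over all kept cells it had 4943 UMIs in DPCP cells and 142 UMIs in control cells, or 93.1 CPM (90.5 to 95.7) against 2.74 CPM (2.31 to 3.23), a ratio of 33.9 (28.7 to 40.4). That ratio also carries the different make-up of the 2 samples. Of the DPCP UMIs 83.2% lay in neutrophil-like cells and 7.55% in macrophage-like cells, whereas unnamed cluster 12 held 48.6% of the control UMIs.

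**Figure D1:**
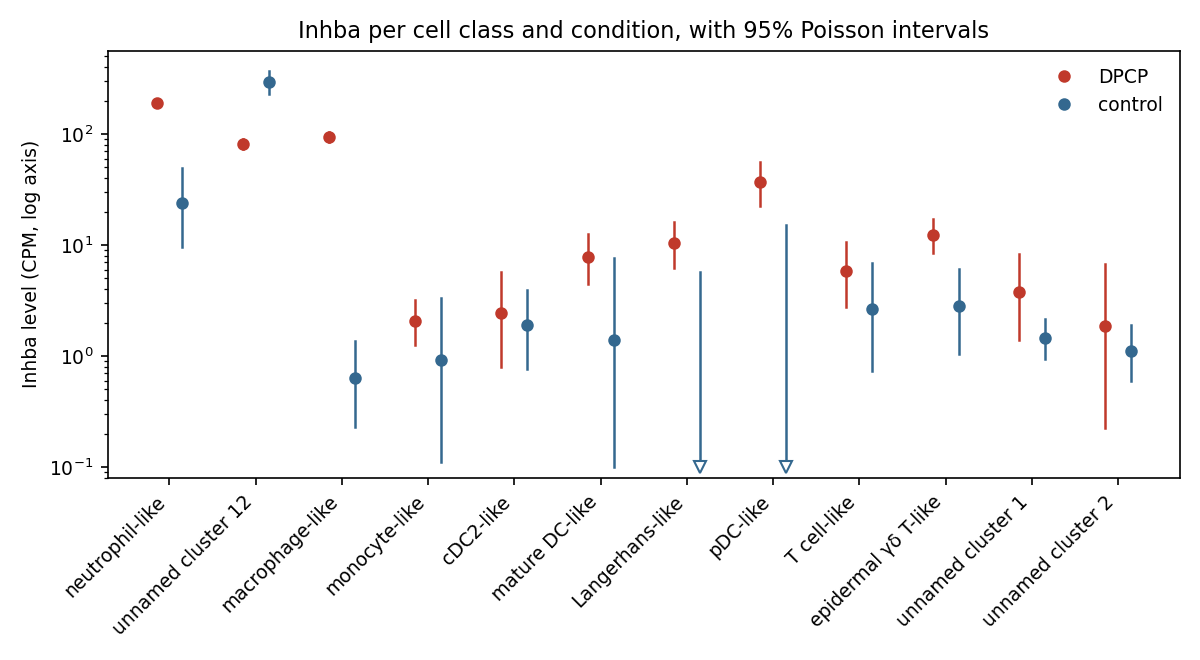
Inhba level in CPM (log axis) in 12 groups of cells, DPCP on the left of each pair and control on the right, with 95% Poisson intervals as bars and open triangles for a level of 0. DPCP points lie above control points in 11 groups, with 191 against 24.0 CPM in neutrophil-like and 94.3 against 0.630 CPM in macrophage-like cells, and the order is turned in unnamed cluster 12 with 81.2 against 294 CPM.

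In neutrophil-like cells Inhba had 4114 UMIs in DPCP cells, 191 CPM (185 to 197), and 7 UMIs in control cells, 24.0 CPM (9.64 to 49.4). The ratio was 7.95 (3.85 to 19.8), and its control side is thin. Of the 7 control UMIs 6 came from 1 cell, the single control cell in cluster 0. Without that cell 1 control UMI was left and the ratio was 54.9 (9.85 to 2169). In cluster 3, the one neutrophil-like cluster with more than 4 control cells, Inhba had 19 UMIs in 980 DPCP cells (5.98 CPM, 3.60 to 9.33) and 1 UMI in 104 control cells (3.63 CPM, 0.0919 to 20.2). There the ratio was 1.65 (0.262 to 68.4), so a difference was not detectable at this depth.

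Inhba divided the DPCP neutrophil-like clusters into 2 kinds. Clusters 0, 4 and 11 had 322, 354 and 135 CPM on 1676, 1843 and 559 UMIs, and together they held 82.5% of all DPCP Inhba UMIs. Clusters 3 and 6 had 5.98 and 4.42 CPM on 19 and 17 UMIs. Cluster 0 was led by Inhba itself with Hcar2 and Spp1, cluster 4 by Cc2d2b, Inhba and Spp1, clusters 6 and 11 by Ly6g and Retnlg, and cluster 3 by Nlrp12, Steap4 and Cxcr2. DPCP cells of cluster 11 had a median of 7635 UMIs, against 2991 in cluster 0, 3959 in cluster 4 and 4787 in cluster 6. The part of doublets in cluster 11 was not tested. Inhba was also among the leading genes of unnamed cluster 12. The genes of the pathway lists were kept out of the variable genes on which clusters were built. Since clusters 4 and 11 had no control cells and cluster 0 had 1, the neutrophil-like cells that carried Inhba in DPCP skin had almost no control counterpart to be set against.

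Within those clusters Inhba sat in a minority of cells. A UMI was found in 741 of 4906 DPCP neutrophil-like cells (15.1%, 14.1 to 16.1) and in 2 of 109 control ones (1.83%, 0.223 to 6.47). With each cell thinned to 1000 UMIs, which left out 160 DPCP and 6 control cells, 7.63% (6.89 to 8.42) of DPCP and 1.94% (0.236 to 6.84) of control cells had one. Lymphocytes give a level to read this against. Of B cell-like cells, 0 of 10 DPCP cells and 1 of 12 control cells had a UMI. Of T cell-like cells, 6 of 143 DPCP cells (4.20%, 1.56 to 8.91) and 4 of 156 control cells (2.56%, 0.703 to 6.43) had one, and their median depths were 9694 UMIs in DPCP and 7365 UMIs in control. Thinned in the same way, 0 of 142 DPCP T cell-like cells had one, with an upper bound of 2.56%, and 1 of 155 control ones did (0.645%). The share in DPCP neutrophil-like cells lay above that of T cell-like cells at a lower median depth of 3659 UMIs. Since Inhba was chosen for its level in that class, this is a description. Before thinning, the interval of the control neutrophil-like share included the T cell-like shares of both conditions. After thinning, it included the share of control T cell-like cells and overlapped the interval of DPCP ones, whose upper bound was 2.56%.

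Of the 741 positive cells 317 had 1 UMI and 186 had 5 or more, and those 186 held 76.6% of the UMIs. The highest cell had 127. The 49 cells with the most, which are 1% of the class, held 46.3% of the Inhba UMIs. For Tgfb1 and Tgfbr1, which had 4485 and 3858 UMIs in the same cells and thus similar totals, the top 1% held 10.1% and 11.8%. For Skil the value was 9.03% and for Smad7 13.6%. The variance of UMIs per cell over their mean was 28.8 for Inhba and between 1.07 and 3.46 for the other 9 genes.

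**Figure D2:**
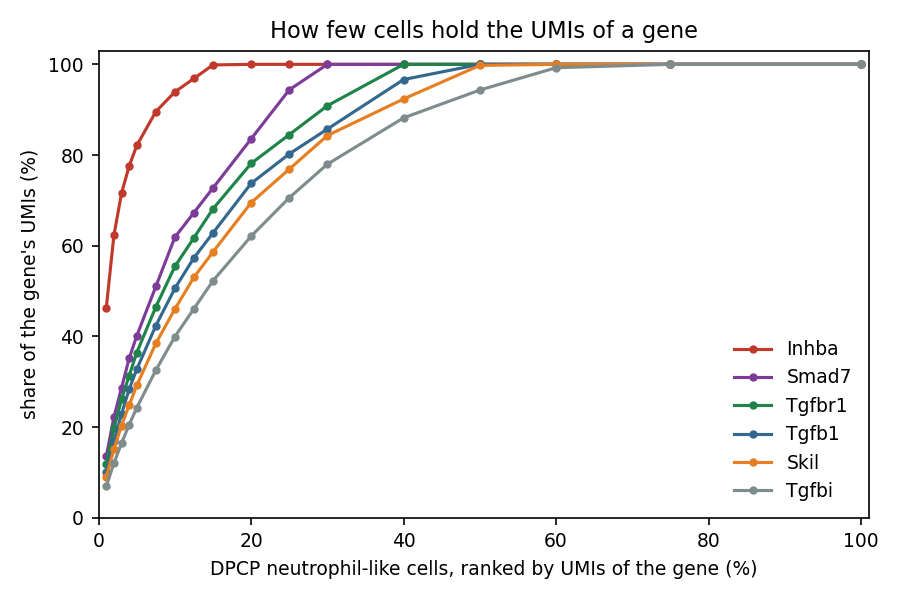
Share of a gene's UMIs (vertical axis, percent) held by the DPCP neutrophil-like cells with the most UMIs of that gene (horizontal axis, percent of 4906 cells), for 6 genes. The Inhba curve is at 46.3% after 1% of cells and 93.9% after 10% of cells, where Tgfb1 is at 50.6% and Skil at 46.0%.

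Cells with an Inhba UMI were alike to their neighbours in the feedback genes in cluster 4, but not in every cluster. In cluster 4 the 304 DPCP cells with a UMI and the 757 without had Skil at 480 and 512 CPM (ratio 0.938, 0.864 to 1.02), Smad7 at 171 and 169 CPM (1.01, 0.876 to 1.16) and Tgfb1 at 327 and 323 CPM (1.01, 0.917 to 1.12). In cluster 0 Tgfbi was lower in the cells with an Inhba UMI, 176 against 276 CPM (0.636, 0.543 to 0.742), and in cluster 11 Tgfbr2 was, 41.9 against 79.2 CPM (0.529, 0.377 to 0.727). Smad7 in cluster 0 had a ratio of 0.804 (0.667 to 0.965) between cells with and without an Inhba UMI, and Skil in macrophage-like cluster 17 one of 1.45 (1.12 to 1.87). Deeper cells have more chance of a UMI, and these pairs were not matched for depth.

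Macrophage-like cells showed the widest ratio for Inhba. The class sat in different clusters by condition, with 129 DPCP cells and 1 control cell in cluster 17, 11 and 495 in cluster 10, 227 and 469 in cluster 7, and 4 and 38 in cluster 22. They had 373 UMIs in 371 DPCP cells, 94.3 CPM (84.9 to 104), and 6 UMIs in 1003 control cells, 0.630 CPM (0.231 to 1.37), a ratio of 150 (68.1 to 411). A UMI was found in 51 DPCP cells (13.7%, 10.4 to 17.7) and in 6 control cells (0.598%, 0.220 to 1.30), each of the 6 with 1 UMI. Of the 373 DPCP UMIs 357 came from cluster 17, which was led by Mmp12, Gpnmb, Pdpn and Arg1, and had 279 CPM. A single cell of it held 116 of them. Without cluster 17, 16 UMIs in DPCP cells stood against 6 UMIs in control cells, a ratio of 9.49 (3.53 to 29.6). In cluster 7, which was led by Pf4, Igf1 and Gas6 and found in both conditions, Inhba had 4.75 CPM (12 UMIs) in DPCP and 0.739 CPM (3 UMIs) in control cells, a ratio of 6.43 (1.74 to 35.5). Leaving out the cells rich in S100a8 and S100a9, 41 of the DPCP and 9 of the control macrophage-like cells, gave a ratio of 133 (60.2 to 365).

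Unnamed cluster 12 passed the markers of neutrophils but was led by genes such as Chil3, Vcan and Ace, which mark monocytes. S100a8 and S100a9 stood at 29727 CPM in its 282 DPCP cells and 26964 CPM in its 21 control cells. Its DPCP cells had a median of 12716 UMIs, against 3659 in neutrophil-like and 10558 in monocyte-like DPCP cells, and the part of doublets was not tested. Inhba had 323 UMIs in the DPCP cells (81.2 CPM, 72.6 to 90.5) and 69 UMIs in the control cells (294 CPM, 229 to 372), a ratio of 0.276 (0.212 to 0.364). Of the 69 control UMIs 50 were in 1 cell and 12 in another, so this ratio rests on very few cells. Joining cluster 12 to the neutrophil-like class gave 4437 DPCP and 76 control UMIs and a ratio of 1.2 (0.959 to 1.53).

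In the other classes Inhba was low. The order of the DPCP levels was neutrophil-like (191 CPM), macrophage-like (94.3), cluster 12 (81.2), plasmacytoid dendritic cell-like (36.6, 21 UMIs), epidermal gamma-delta T cell-like (12.2, 33 UMIs), Langerhans cell-like (10.4, 19 UMIs), mature dendritic cell-like (7.80, 16 UMIs) and T cell-like (5.81, 10 UMIs). Macrophage-like cells and cluster 12 did not differ beyond their intervals, and neither did the neighbours from epidermal gamma-delta T cell-like cells downwards. The rest had 4.75 CPM or less, on 20 UMIs or fewer, with monocyte-like cells at 2.07 CPM (20 UMIs) in DPCP and 0.924 CPM (2 UMIs) in control. Control Langerhans cell-like and plasmacytoid dendritic cell-like cells had no Inhba UMI, so their DPCP levels were at least 2.26-fold and at least 2.97-fold higher than 3 counts over the control cells would be. Of the 21 UMIs in plasmacytoid dendritic cell-like cells, 17 were in 1 of 50 cells. S100a8 and S100a9 stood at 9763 CPM in those DPCP cells and 436 CPM in control ones, and the part of neutrophil RNA there was not tested. Epidermal gamma-delta T cell-like cells had a ratio of 4.34 (1.8 to 12.7). Without the cells rich in S100a8 and S100a9 the log2 ratio of Inhba was 0.26 in epidermal gamma-delta T cell-like cells, against 2.12 with them. In T cell-like cells it was -1.79, against 1.12. The T cell-like class had 10 DPCP and 4 control UMIs even before that step, and no direction is read from so few. The same step gave at least 0.63 in Langerhans cell-like cells, against at least 1.18 with them.

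Counting the 10 genes by class shows where each differed. A gene is counted as higher or lower where it was at least 2-fold away and its interval excluded 1, among genes with at least 50 UMIs over both conditions. In neutrophil-like cells 2 of 10 were higher (Inhba and Skil) and 1 lower (Tgfbr2), where 5.76% of all genes were higher and 7.88% lower. In macrophage-like cells 5 of 10 were higher (Inhba, Acvr2a, Smad7, Skil and Tgfbi) and none lower, against 6.57% and 4.15% of all genes. In monocyte-like cells 2 of 9 were higher (Acvr2a and Tgfbi) and 1 lower (Tgfbr1), against 3.66% and 3.55%. In conventional dendritic cell type 2-like cells 2 of 9 were higher (Smad7 and Tgfbi), against 3.92% higher and 4.52% lower among all genes.

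In mature dendritic cell-like cells 1 of 7 was higher (Tgfbi), against 10.3% higher and 3.86% lower among all genes. In Langerhans cell-like cells 2 of 9 were higher (Skil and Tgfbi), against 12.2% and 8.78%. In T cell-like cells 1 of 9 was lower (Acvr1), against 4.38% higher and 3.06% lower. In epidermal gamma-delta T cell-like cells 1 of 9 was higher (Skil), against 6.33% and 4.32%. Unnamed clusters 1 and 2, led by Thsd4 and Kcnip4 and by Slc27a3 and Negr1, had 0 of 9 and 1 of 9 higher (Acvr1b) and none lower, against 2.03% higher and 2.12% lower of all genes in cluster 1 and 2.4% and 1.97% in cluster 2. The median log2 ratio of the members with at least 50 UMIs was 0.55 in neutrophil-like cells, beside -0.30 over all genes tested, 0.97 beside 0.02 in macrophage-like, -0.17 beside -0.05 in monocyte-like and -0.45 beside 0.10 in Langerhans cell-like cells. These are small counts, and the genes were chosen with results known, so nothing is read from how they compare with the shares of all genes.

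**Figure D3:**
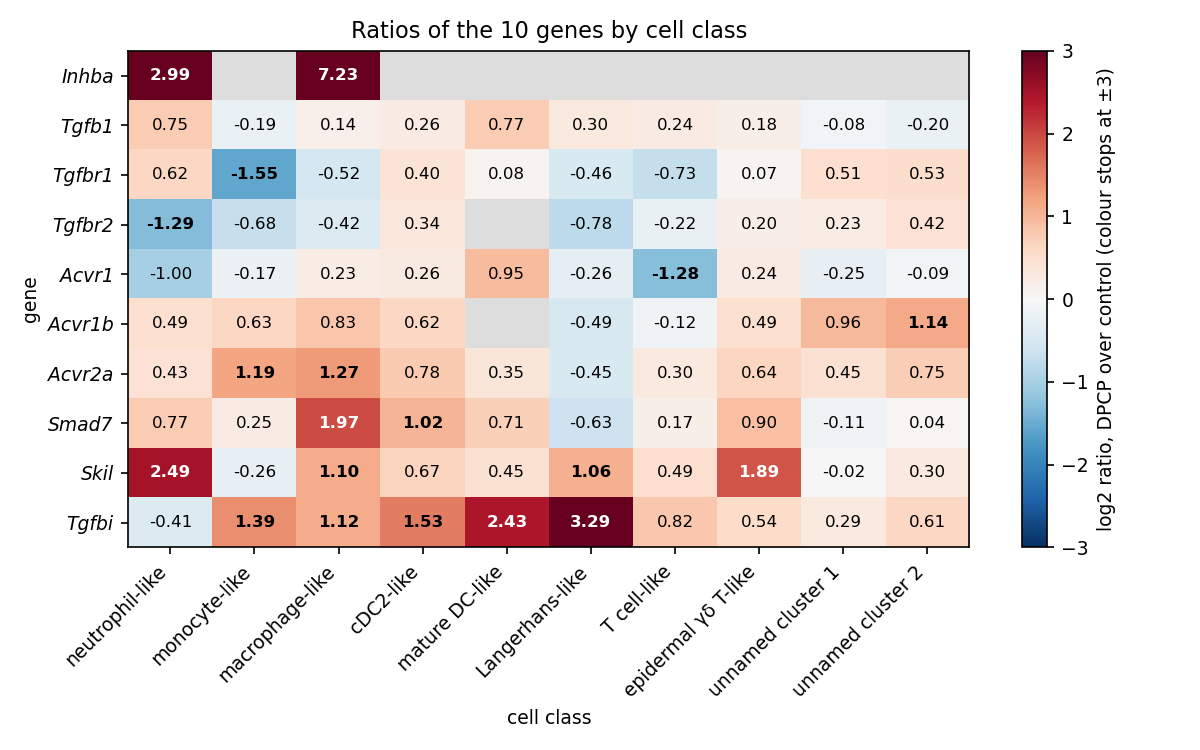
Log2 ratio, DPCP over control, of the 10 genes (rows) in 10 cell classes (columns), with red for higher and blue for lower in DPCP. Bold values are at least 2-fold with an interval that excludes 1, and grey cells had under 50 UMIs. Bold values appear in 9 of 10 columns, with none in unnamed cluster 1, and the Tgfb1 row has none, at -0.20 to 0.77.

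Tgfb1, the other ligand, was at like levels in both conditions. It had 208 CPM (4485 UMIs) in DPCP and 123 CPM (36 UMIs) in control neutrophil-like cells, a ratio of 1.69 (1.22 to 2.41). All 36 control UMIs were in cluster 3, where Tgfb1 was 129 CPM in DPCP and 131 CPM in control cells (0.987, 0.701 to 1.43). Macrophage-like cells had 234 and 212 CPM (1.10, 1.02 to 1.19), monocyte-like cells 376 and 430 CPM (0.874, 0.813 to 0.940), and Langerhans cell-like cells 192 and 157 CPM (1.23, 0.982 to 1.55). The widest ratio was in mature dendritic cell-like cells, with 94.5 and 55.3 CPM (1.71, 1.21 to 2.47). Unlike Inhba, Tgfb1 was found in each compared class of both conditions at 55 CPM or more. The DPCP neutrophil-like clusters differed in it too, with 253, 324 and 196 CPM in clusters 0, 4 and 11, and 129 and 66.6 CPM in clusters 3 and 6.

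Other ligands of the family were scarce. The beta B chain gene Inhbb and the inhibin alpha gene Inha, whose products pair with the beta A chain, had 2 and 0 UMIs in DPCP neutrophil-like cells and none in control ones. Fst, the secreted activin antagonist follistatin, had 14 UMIs in DPCP neutrophil-like cells and none in control ones, and no UMI in macrophage-like cells of either condition. Gdf3 was lower in DPCP macrophage-like cells, with 7.08 CPM (28 UMIs) against 24.0 CPM (229 UMIs), a ratio of 0.294 (0.191 to 0.437). Gdf15 had 199 UMIs in DPCP neutrophil-like cells (9.22 CPM) and 0 in control ones, a level with an upper bound of 12.6 CPM.

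The type I receptors differed in direction between classes. Their genes are Tgfbr1 (chromosome 4, 47353222 to 47414931, plus strand), Acvr1 (chromosome 2, 58388644 to 58567157, minus strand) and Acvr1b (chromosome 15, 101174067 to 101213684, plus strand), in mm10 as annotated by GENCODE. Tgfbr1, the type I receptor for TGF-beta, was lower in monocyte-like cells, with 84.9 CPM (79.1 to 90.9) in DPCP against 248 CPM (228 to 270) in control, a ratio of 0.342 (0.306 to 0.382). Cluster 14, led by Cd300e and Ace, carried more of it than cluster 5 in both conditions, 245 against 71.0 CPM in DPCP and 450 against 177 CPM in control. Within cluster 5 the ratio was 0.402 (0.349 to 0.464) and within cluster 14 it was 0.545 (0.449 to 0.660), so the difference was present in both while the mix of clusters also changed. Classes drawn by a per-cell marker gate gave a log2 ratio of 0.67, against -1.55 with clusters. In neutrophil-like cells Tgfbr1 was 179 CPM in DPCP and 117 CPM in control (1.53, 1.10 to 2.22). In cluster 3 alone it was 107 and 123 CPM (0.869, 0.610 to 1.28). In macrophage-like cells Tgfbr1 was 98.3 CPM in DPCP and 141 CPM in control (0.698, 0.622 to 0.782). That ratio rests on the 38 control cells of cluster 22, which held 1079 of the 1342 control UMIs. Within cluster 7 the ratio was 1.15 (0.869 to 1.53), and DPCP cells of cluster 17 had 198 CPM.

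Acvr1b, the activin type I receptor ALK4, was within 2-fold in 8 of the 9 groups where it had at least 50 UMIs. It stood at 28.9 CPM (623 UMIs) in DPCP and 20.6 CPM (6 UMIs) in control neutrophil-like cells (1.40, 0.642 to 3.84), and at 31.8 and 17.9 CPM in macrophage-like cells (1.77, 1.40 to 2.25). In unnamed cluster 2 it was 28.7 CPM (31 UMIs) in DPCP and 13.0 CPM (152 UMIs) in control cells, a ratio of 2.20 (1.45 to 3.26). Acvr1, the type I receptor ALK2, had 10.5 CPM (18 UMIs) in DPCP and 25.3 CPM (38 UMIs) in control T cell-like cells, a ratio of 0.412 (0.222 to 0.741). It was within 2-fold under 4 of 14 alternatives, among them the one without cells rich in S100a8 and S100a9, with -0.02 as the log2 ratio nearest to 0. In neutrophil-like cells Acvr1 had 3.43 CPM (74 UMIs) in DPCP and 6.85 CPM (2 UMIs) in control cells.

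Of the 2 type II receptors, Acvr2a, which binds activin, stood higher in DPCP monocyte-like and macrophage-like cells. Monocyte-like cells had 117 CPM (110 to 124) in DPCP and 51.3 CPM (42.2 to 61.8) in control, a ratio of 2.28 (1.88 to 2.80). Within cluster 5 the ratio was 2.40 (1.91 to 3.04), but within cluster 14 it was 0.943 (0.564 to 1.59). Taken over monocyte-like cells as a mean of each cell's CPM, the log2 ratio was 0.88, under 2-fold. Macrophage-like cells had 78.1 CPM (69.6 to 87.3) and 32.4 CPM (28.9 to 36.3), a ratio of 2.41 (2.05 to 2.83), and in cluster 7 alone the ratio was 2.88 (2.28 to 3.67). Conventional dendritic cell type 2-like cells had 73.9 and 43.0 CPM (1.72, 1.37 to 2.16). Among the named classes compared, the highest level was in mature dendritic cell-like cells, at 261 CPM in DPCP and 205 CPM in control, and the lowest in neutrophil-like cells, at 18.4 CPM (398 UMIs) in DPCP and 13.7 CPM (4 UMIs) in control.

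Acvr2a lies on chromosome 2 from 48814109 to 48903269 on the plus strand, and Tgfbr2 on chromosome 9 from 116084293 to 116175360 on the minus strand. Tgfbr2, the TGF-beta type II receptor, was lower in DPCP neutrophil-like cells. It had 64.3 CPM (61.0 to 67.8) in DPCP and 158 CPM (115 to 210, 46 UMIs) in control, a ratio of 0.408 (0.304 to 0.560). The ratio stayed past 2-fold in only 10 of 16 alternatives, with -0.42 as the log2 ratio nearest to 0. In cluster 3 alone Tgfbr2 had 116 and 156 CPM (0.745, 0.543 to 1.05), so the interval there included 1. It was lower in the DPCP clusters with high Inhba, at 36.3, 41.9 and 69.3 CPM in clusters 0, 4 and 11 and 116 and 84.5 CPM in clusters 3 and 6. Likewise in DPCP macrophage-like cells it was 32.8 CPM in cluster 17 and 114 CPM in clusters 7, 10 and 22 together (0.286, 0.202 to 0.396). Of the compared groups, the epidermal gamma-delta T cell-like one had the highest Tgfbr2, at 329 CPM in DPCP and 286 CPM in control (1.15, 1.04 to 1.28).

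**Figure D4:**
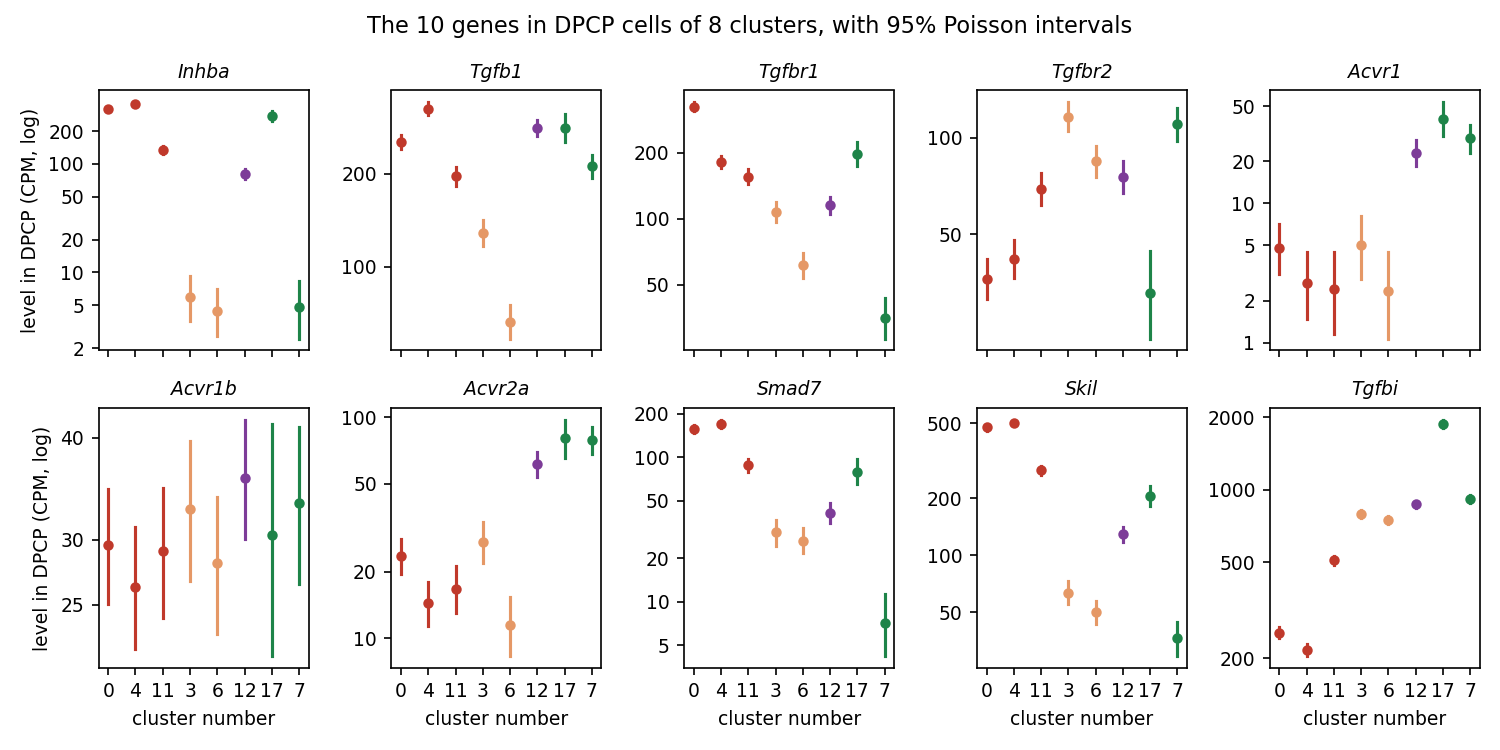
Level of the 10 genes in CPM (log axes, each panel with its own range) in DPCP cells of 8 clusters, with 95% Poisson intervals. Red is clusters 0, 4 and 11, orange clusters 3 and 6 (all neutrophil-like), purple unnamed cluster 12 and green the macrophage-like clusters 17 and 7. Inhba is at 322, 354 and 135 CPM in red clusters and 279 CPM in cluster 17, while Tgfbr2 is at 36.3 CPM in cluster 0 and 116 CPM in cluster 3.

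A small macrophage-like cluster stood apart in its receptors. Cluster 22, with 4 DPCP and 38 control cells, had Tgfbr1 at 1050.1 CPM (41 UMIs) in the DPCP cells and 2523 CPM (1079 UMIs) in the control cells. In control skin clusters 7 and 10 together had 28.9 CPM, a ratio of 87.3 (76.2 to 100.2) of cluster 22 over them. Its Tgfbr2 was 374 against 106 CPM (3.53, 2.96 to 4.17), its Smad7 58.4 against 5.39 CPM (10.9, 6.42 to 17.9) and its Skil 252 against 34.0 CPM (7.43, 5.91 to 9.28). Pmepa1, which limits SMAD activation, was 966 against 5.83 CPM. Inhba had no UMI in its cells of either condition. The cluster was found by its own genes, of which Pmepa1 was a leading one, so these are descriptions of it.

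Skil lies on chromosome 3 from 31095058 to 31122577, and Tgfbi on chromosome 13 from 56609523 to 56639562, both on the plus strand. Both feedback genes were higher in the DPCP neutrophil-like clusters with high Inhba than in clusters 3 and 6. Skil, a co-repressor of SMAD complexes, had 307 CPM (300.1 to 315) in DPCP and 54.8 CPM (31.3 to 89.0, 16 UMIs) in control neutrophil-like cells, a ratio of 5.61 (3.45 to 9.82). In cluster 3 alone the levels were 63.5 and 58.1 CPM and the ratio 1.09 (0.657 to 1.95). Clusters 0, 4 and 11, grouped after their Inhba levels were seen, had 474, 501 and 281 CPM, and clusters 3 and 6 had 63.5 and 49.9 CPM. Smad7, which blocks type I receptors and recruits ubiquitin ligases to them, had 105 CPM in DPCP and 61.7 CPM (18 UMIs) in control neutrophil-like cells (1.70, 1.07 to 2.88). In DPCP cells Smad7 stood at 157, 170 and 88.2 CPM in clusters 0, 4 and 11, and at 30.2 and 26.5 CPM in clusters 3 and 6. In cluster 3 alone it was lower in DPCP, 30.2 CPM (96 UMIs) against 61.7 CPM (17 UMIs), a ratio of 0.489 (0.290 to 0.874).

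In macrophage-like cells Smad7 was 30.3 CPM (25.1 to 36.3) in DPCP and 7.77 CPM (6.1 to 9.75) in control, a ratio of 3.90 (2.90 to 5.29), and Skil was 94 and 43.8 CPM (2.15, 1.86 to 2.48). Most of both differences lay in cluster 17, where Smad7 had 79.6 CPM and Skil 205 CPM. Without it the log2 ratio of Smad7 was -0.21 and that of Skil -0.10. The 38 control cells of cluster 22, which stayed in, held 25 of the 74 control Smad7 UMIs and 108 of the 417 control Skil UMIs. Within cluster 7 the ratios were 1.16 (0.595 to 2.21) for Smad7 and 1.31 (0.984 to 1.74) for Skil. Without the cells rich in S100a8 and S100a9 the log2 ratio of Skil was 0.83, against 1.10 with them.

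Skil was also higher in epidermal gamma-delta T cell-like cells, with 133 CPM (119 to 147) in DPCP and 35.7 CPM (28.1 to 44.6) in control, a ratio of 3.72 (2.90 to 4.83). These resident T cells of the mouse epidermis carried S100a8 and S100a9 transcripts in DPCP (13797 CPM), whose source was not tested. Without the 84 cells rich in those transcripts the log2 ratio of Skil was 1.74, against 1.89 with those cells. Langerhans cell-like cells had 211 CPM of Skil in DPCP and 101.3 CPM in control (2.09, 1.60 to 2.75), under 2-fold in 3 of 14 alternatives with a lowest log2 ratio of 0.89, but Smad7 at 52.6 and 81.4 CPM (0.646, 0.457 to 0.921). Conventional dendritic cell type 2-like cells had Smad7 at 53.2 and 26.2 CPM (2.03, 1.53 to 2.70) and Skil at 57.6 and 36.2 CPM (1.59, 1.23 to 2.05). The Smad7 ratio was under 2-fold in 4 of 14 alternatives, among them the one without cells rich in S100a8 and S100a9, with a lowest log2 ratio of 0.46. Monocyte-like cells had Smad7 at 14.3 and 12 CPM and Skil at 66.2 and 79.0 CPM, both within 2-fold.

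Tgfbi, the target gene, was higher in 5 antigen-presenting and phagocytic classes, and within 2-fold in neutrophil-like cells. Langerhans cell-like cells had 1156 CPM (1107 to 1206) in DPCP and 118 CPM (93.3 to 148) in control, a ratio of 9.78 (7.79 to 12.4). Mature dendritic cell-like cells had 216 and 40.1 CPM (5.39, 3.70 to 8.15), conventional dendritic cell type 2-like cells 693 and 240 CPM (2.89, 2.66 to 3.15), monocyte-like cells 1261 and 480 CPM (2.63, 2.47 to 2.80) and macrophage-like cells 1218 and 559 CPM (2.18, 2.10 to 2.27). In neutrophil-like cells it was 463 and 613 CPM (0.754, 0.650 to 0.879), but in cluster 3 alone it was 796 and 617 CPM (1.29, 1.10 to 1.51), so the direction was turned there. Clusters 0 and 4 had the lowest DPCP neutrophil-like levels, at 255 and 216 CPM, and clusters 3 and 6 had 796 and 749 CPM, while cluster 17, which was rich in Inhba, had 1877 CPM. In macrophage-like cells without cluster 17 the log2 ratio was 0.69, under 2-fold, against 1.12 with it. The ratio in conventional dendritic cell type 2-like cells was under 2-fold in 9 of 14 alternatives, each of them a different set of cells, with a lowest log2 ratio of 0.55.

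**Figure D5:**
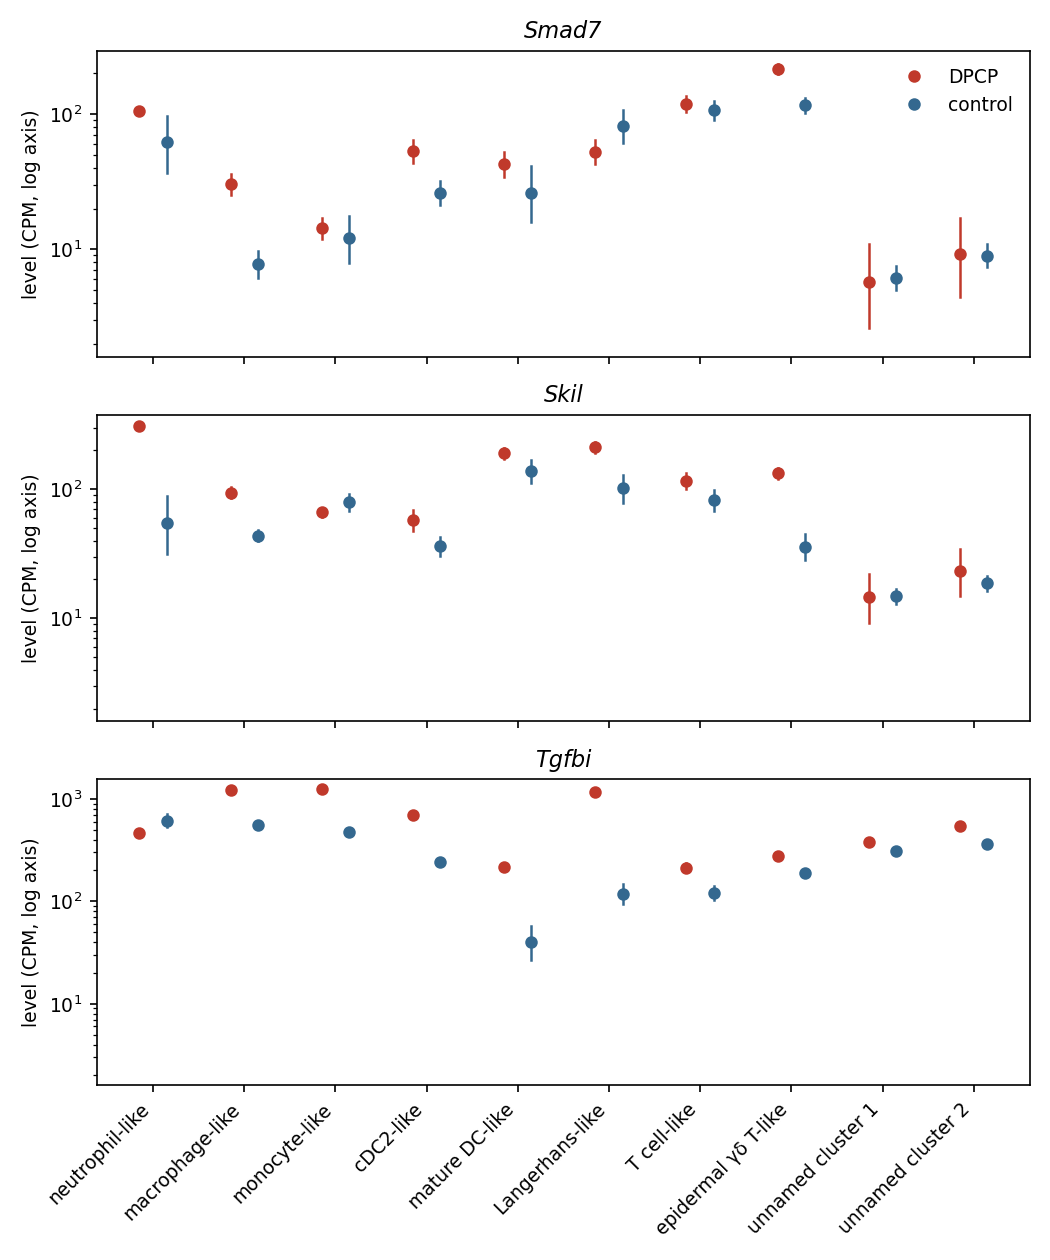
Levels of Smad7, Skil and Tgfbi in CPM (log axes) in 10 cell classes, DPCP on the left of each pair and control on the right, with 95% Poisson intervals. The widest gap for Skil is in neutrophil-like cells (307 against 54.8 CPM), for Smad7 in macrophage-like cells (30.3 against 7.77 CPM) and for Tgfbi in Langerhans cell-like cells (1156 against 118 CPM).

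Genes around the 10 were counted from lists of the pathway that were drawn up with results of these data known. Of 11 feedback genes and co-repressors, 9 were measured in neutrophil-like cells with 2 higher (Skil and Tgif1), 9 in macrophage-like cells with 3 higher (Smad7, Skil and Tgif1) and 1 lower (Pmepa1), and 9 in Langerhans cell-like cells with 3 higher (Skil, Tgif1 and Pmepa1). The same 3 were the higher ones among 9 in epidermal gamma-delta T cell-like cells. Of all genes tested, 5.76% were higher in neutrophil-like, 6.57% in macrophage-like, 12.2% in Langerhans cell-like and 6.33% in epidermal gamma-delta T cell-like cells, and 4.15% were lower in macrophage-like cells. The lower Pmepa1 of macrophage-like cells rests on the 38 control cells of cluster 22, which held 413 of its 466 control UMIs. In cluster 7 Pmepa1 was 7.13 CPM (4.22 to 11.3) in DPCP and 10.6 CPM (7.66 to 14.3) in control cells. The median log2 ratio of the list was 0.58 in neutrophil-like cells, beside -0.30 over all genes tested there, 0.19 in macrophage-like cells, beside 0.02, and 0.62 in the epidermal gamma-delta T cell-like class, beside 0.02. Tgif1, a homeobox co-repressor of SMAD2, had 214 CPM in DPCP and 41.1 CPM (12 UMIs) in control neutrophil-like cells, a ratio of 5.21 (2.98 to 10.1). In DPCP clusters 0, 4 and 11 together it was 312 CPM, and in clusters 3 and 6 it was 12.8 CPM. In cluster 3 alone Tgif1 was 18.6 CPM in DPCP and 39.9 CPM (11 UMIs) in control cells, and their intervals overlapped. Pmepa1 was 181 CPM (331 UMIs) in DPCP and 6.14 CPM (4 UMIs) in control Langerhans cell-like cells, a ratio of 29.5 (11.4 to 109), and 100 and 13.6 CPM in epidermal gamma-delta T cell-like cells (7.35, 5.0 to 11.2).

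Of 16 genes for binding proteins, latency and activation, 4 to 7 were measured in a class. Among all genes tested, 2.03% to 12.2% were higher and 1.97% to 8.78% lower in a compared group. Thbs1, thrombospondin 1, which can activate latent TGF-beta, was higher in 9 of the 10 compared groups. It had 1906 CPM (41115 UMIs) in DPCP and 78.8 CPM (23 UMIs) in control neutrophil-like cells (24.2, 16.1 to 38.1), but 41.2 and 47.2 CPM in cluster 3 alone, and 737 and 20 CPM in macrophage-like cells (36.8, 31.8 to 42.8). T cell-like cells had 424 and 10.0 CPM of it, and the epidermal gamma-delta kind 385 and 19.2 CPM, beside S100a8 and S100a9 at 9720 and 510 CPM in T cell-like cells, and the part of neutrophil RNA in these ratios was not tested. Itgav, the integrin alpha V chain that activates latent TGF-beta, was 274 CPM in DPCP and 87.5 CPM in control Langerhans cell-like cells (3.13, 2.37 to 4.19). Itgb8, its partner on some immune cells, was 51.1 CPM (88 UMIs) and 7.33 CPM (11 UMIs) in T cell-like cells (6.97, 3.71 to 14.5). In unnamed cluster 1 Itgb8 was instead counted as lower in DPCP. Nrros, which holds latent TGF-beta on myeloid cells, was lower in epidermal gamma-delta T cell-like cells (106 and 237 CPM, 0.448, 0.386 to 0.519) and higher in mature dendritic cell-like cells (216 and 92.7 CPM, 2.33, 1.8 to 3.06).

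Of 13 receptor genes, 5 to 10 were measured in a class, and the co-receptor Tgfbr3 was lower in monocyte-like cells, 17.8 CPM in DPCP against 44.8 CPM in control (0.397, 0.308 to 0.515). It was lower too in T cell-like cells, 38.9 against 89.3 CPM (0.435, 0.320 to 0.588), and higher in unnamed cluster 1, 123 against 37.6 CPM (3.26, 2.76 to 3.84). Eng, the co-receptor endoglin, was higher in mature dendritic cell-like cells, 31.2 against 4.15 CPM (7.52, 2.46 to 37.4, 3 control UMIs). Of 6 SMADs, 4 or 5 were measured in a class, and Smad1 alone passed 2-fold: it was lower in neutrophil-like cells (7.97 against 30.8 CPM) and in Langerhans cell-like cells (52.0 against 115 CPM), and higher in unnamed cluster 2 (11.1 against 4.37 CPM). Among all genes tested, 7.88% were lower in neutrophil-like, 8.78% in Langerhans cell-like, 3.55% in monocyte-like and 3.06% in T cell-like cells. The share higher was 10.3% in mature dendritic cell-like cells, 2.03% in unnamed cluster 1 and 2.4% in unnamed cluster 2. Nothing is read from so few genes.

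Of 13 target genes, 8 were measured in neutrophil-like cells with 3 higher (Id1, Id2 and Cdkn1a) and 1 lower (Axl), and 8 in macrophage-like cells with 3 higher (Tgfbi, Spsb1 and Junb) and 1 lower (Axl). Of all genes tested, 5.76% were higher and 7.88% lower in neutrophil-like cells, and 6.57% higher and 4.15% lower in macrophage-like cells. Axl, a receptor kinase that TGF-beta induces in Langerhans cells, was 43.5 CPM in DPCP and 155 CPM in control macrophage-like cells (0.281, 0.238 to 0.329). Of those control cells 495 were in cluster 10, where Axl was 186 CPM, against 11 of the DPCP cells, and 129 DPCP cells were in cluster 17, where it was 32.8 CPM. In cluster 7 Axl was 38.8 CPM (31.5 to 47.3) in DPCP and 82.7 CPM (74.1 to 92.1) in control cells. Axl was 10.7 and 56.4 CPM in monocyte-like cells (0.189, 0.144 to 0.248). Cdkn1a, the cell cycle inhibitor p21, was 199 and 27.4 CPM (8 control UMIs) in neutrophil-like cells (7.27, 3.69 to 16.9), 28.9 and 25.4 CPM in cluster 3 alone, and 438 and 47.6 CPM in Langerhans cell-like cells (9.20, 6.43 to 13.6). Id2, which Langerhans cells need, was 223 and 484 CPM in Langerhans cell-like cells (0.462, 0.398 to 0.537).

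Over 18 sums of named classes by condition with at least 50 cells, the genes whose log2(CPM + 1) was most like that of Inhba among 11138 genes were Il1rn (Pearson r 0.918), Gm29264 (0.888), Spp1 (0.885), 4933432I03Rik (0.880) and Gm13986 (0.878). These sums share libraries and cells of 1 pool, and r is a description. Il1rn, the secreted antagonist of the interleukin 1 receptor, had 1940 CPM in DPCP and 250.1 CPM in control neutrophil-like cells and 630 and 44.4 CPM in macrophage-like cells. Spp1, osteopontin, had 3427 and 110 CPM (32 UMIs) in neutrophil-like cells and 738 and 63.0 CPM in macrophage-like cells. Of the other members Skil was nearest, at r 0.53 and rank 741, followed by Smad7 at 0.44 and rank 1093, and Acvr1 was farthest, at -0.42.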

How the data were processed

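CD45+ mouse skin cells were sequenced with a 3′ droplet assay. The authors deposited raw UMI counts of 32285 genes and of multiplexing tags in 14146 barcodes. Per the file headers, Cell Ranger 7.0.0 wrote the matrix; Cell Ranger 6.1.1, Seurat 4.0.1 and mm10 are named by the submitters' processing notes. Each barcode's suffix gives its tagged sample by the deposited aggregation table, and no barcode sequence occurred in both conditions. The members, lists and alternatives were chosen with earlier results of these data known.

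A barcode was kept from 200 genes upwards if no more than 10% of its UMIs were mitochondrial, which removed 3.53% of DPCP and 20.8% of control barcodes by the mitochondrial share. Scrublet in scanpy 1.11.5 called 3 doublets (0.0239%), so it did not work here, and doublets remain. Clustering used 2000 variable genes, of which 1986 were left without the pathway genes, 30 principal components, 15 neighbours and Leiden resolution 1 (leidenalg 0.10.2, Python 3.11.15, numpy 2.4.6, scipy 1.17.1, scikit-learn 1.9.0). By a rule set after seeing the data, a cluster took a class name if no fewer than 3 markers, and no less than 0.5 of the list, had a UMI in 10% of its cells and a level 2-fold above the median cluster. Clusters with more leading markers of another class, low UMI counts or cell cycle genes in the lead stayed unnamed. Groups with at least 50 cells per condition were compared, 8 classes and 2 unnamed clusters.

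UMIs were summed per group and condition and scaled to CPM. A level of 0 was set to 3 counts over the group for a ratio. Pathway genes besides the members were mostly named where past 2-fold with an interval that excludes 1, up to 4 per list and class. The named ones are a selection, and further genes that passed are not named. The 5 genes most like Inhba needed 200 UMIs. TMM scaling used edgeR 4.0.16 in R 4.3.3. The intervals were tried on simulated Poisson counts, the model they assume, so that trial could not show how they do on uneven cells. Where few cells hold most UMIs of a gene, as for Inhba, the intervals do not cover the spread between cells.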

Additional observations from a re-analysis of the deposited data

How the results depend on the processing

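The log2 ratio of Inhba in neutrophil-like cells, 2.99, stayed above 0 under 16 alternatives but moved with the few control cells taken in. It was 5.68 with the stricter cell filter (500 genes, 5% mitochondrial UMIs), 5.78 without doublet removal, 5.78 with 4000 variable genes, 6.26 with a per-cell marker gate and 5.78 without the control cell of cluster 0. It was 1.43 without a cell filter, 1.49 without the 5% highest doublet scores, 1.83 at Leiden resolution 0.5, 1.42 with pathway genes left in the clustering, 0.42 at resolution 2, 0.72 without clusters under 5 control cells, and 0.27 with cluster 12 joined. In macrophage-like cells, 7.23 became 4.85 with the per-cell gate and 3.25 without clusters under 5 control cells, and the other alternatives lay within its interval. The settings without the control cell of cluster 0 and with cluster 12 joined were chosen after seeing the data.

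Of 268 alternative values of the 19 called ratios, 265 kept the direction and 229 stayed past 2-fold. The 3 that turned were Tgfbr1 in monocyte-like cells under the per-cell gate (0.67), and Smad7 (-0.21) and Skil (-0.10) in macrophage-like cells without clusters under 5 control cells, where cluster 17 leaves. TMM scaling raised every log2 ratio in neutrophil-like cells by 0.53, which took Tgfbr2 under 2-fold, and shifted the other groups by 0.12 or less in size. No paired analysis was possible because each condition is 1 tagged sample, and no replicate could be left out. Of the shares of all genes called, 5 moved by over 1.5 times with a minimum of 10 or 200 UMIs, and 35 did not. Of the Inhba shares thinned to 2000 UMIs, 6 left the interval at 1000 and 33 did not. Depth limits the control neutrophil-like class, with 291841 UMIs in 109 cells.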
